A study of Equus caballus with 4 samples.

Results

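The troponin and tropomyosin genes were examined in differentiating equine satellite cells exposed to gamma-oryzanol (GO), a mixture of ferulic acid esters from rice bran. The genes were TNNC1, TNNC2, TNNI1, TNNI2, TNNT1, TNNT2, TNNT3, TPM1, TPM2 and TPM3, and a probe belonged to one of them when its gene name in the array files equaled the symbol. This found 18 probes of 7 genes. For TNNI1, TNNT1 and TNNT2 the files gave a transcript number in place of a symbol, and 11 further probes were named through the files' description text. Together these were 29 probes of 10 genes, out of 43603 different probes on the array, and each of the 29 gave a signal well above background on every array, in GO and in control cells.

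Satellite cells are the stem cells of skeletal muscle, which fuse into multinucleated myotubes when they differentiate. Primary cultures came from semitendinosus muscle of healthy colts 6 months of age, and 1 cell line was chosen from 6 horses for the best viability and fusion. Cells in differentiation medium with 2% horse serum received 125 nM GO for 24 h up to the 3rd day of differentiation, and control cells received the vehicle, DMSO at 0.04 μl/ml, in the same medium. RNA of both groups was hybridized pairwise to 4 two-color horse arrays, with Cy5 for GO and Cy3 for control throughout. Dye and treatment therefore cannot be told apart, and no test of the slide was possible, since 1 slide carried all arrays. Whether the RNA pairs represent several horses or repeated cultures is not given in the sources used here, and the p-values measure only the spread between these samples. With 4 arrays, precision is limited.

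In striated muscle, actin, tropomyosin and troponin form the thin filament. Tropomyosin lies along actin and covers the sites to which myosin binds, and the troponin complex moves it when calcium rises. Troponin C binds the calcium, troponin I inhibits contraction in its absence, and troponin T ties the complex to tropomyosin. Slow, fast and cardiac fibers use different genes for these subunits, apart from TNNC1, which slow and cardiac fibers share. Differentiating muscle cells often express several of these genes at once, cardiac troponin T included. The tropomyosin genes also make forms of non-muscle cells through other promoters and exons.

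The probes of slow and fast troponin T are shown first because both cover the same stretch of the 2 genes, so that their readings may not be separate. Capitals mark the bases identical between them when TNNT1 is shifted by 3 bases. Of 57 overlapping bases 40 were identical.

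TNNT1: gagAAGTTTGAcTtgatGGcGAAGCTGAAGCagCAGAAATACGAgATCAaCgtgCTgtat
TNNT3: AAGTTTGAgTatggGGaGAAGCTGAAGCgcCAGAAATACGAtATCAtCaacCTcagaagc

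The probes of slow and cardiac troponin I also covered one stretch, with 43 of 60 bases identical, again in capitals.

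TNNI1: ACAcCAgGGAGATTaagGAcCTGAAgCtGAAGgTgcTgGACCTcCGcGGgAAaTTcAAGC
TNNI3: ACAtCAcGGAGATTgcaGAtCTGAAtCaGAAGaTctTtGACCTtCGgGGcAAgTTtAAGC

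For the probes of the fast troponin I gene and of both troponin C genes no capitals are used. They are shown because these genes carried the calls described next. Among ungapped overlaps of at least 40 bases, the best between TNNC1 and TNNC2 had 26 of 45 bases identical, and between TNNI1 and TNNI2 19 of 40. Shorter overlaps were not compared. In such a shorter overlap the end of the TNNI2 probe resembles the start of the TNNI1 probe, so these 2 probes partly cover one stretch. Whether any of these probes also bound the transcript of a related gene was not tested.

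TNNI2: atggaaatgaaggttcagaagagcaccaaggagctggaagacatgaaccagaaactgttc
TNNC1: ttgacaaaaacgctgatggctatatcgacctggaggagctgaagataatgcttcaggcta
TNNC2: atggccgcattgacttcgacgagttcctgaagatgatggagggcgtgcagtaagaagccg

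The 7 troponin genes were lower in GO-treated cells, at 65.7 to 80.3% of the control signal, while the 3 tropomyosin genes lay at 94.9 to 101% of it. Each gene is given by its brightest probe. The 4 log2 ratios of a probe, GO over control, were tested against 0 with limma, and p-values were adjusted over the 26834 probes that passed a filter on dim signals. All 7 troponin genes had an adjusted p of at most 0.05 over the 4 arrays, though not every gene kept it when single arrays were left out. Of them 4, TNNC1, TNNC2, TNNI1 and TNNI2, also passed the fold change of 1.3, which is 0.38 on the log2 scale. Of all probes tested, 5.61% were lower past both thresholds, 3.33% higher and 8.94% in either direction, and 9.82% were lower by the adjusted p alone. Of the probes past both thresholds 62.7% were lower, against 48.7% when no lowess curve was used. None of the 3 tropomyosin genes passed either threshold by its brightest probe, and 0 had an unadjusted p of at most 0.05 with limma, although 2 dim TPM3 probes passed both thresholds. In bulk RNA, fewer cells of a type and less RNA per cell cannot be told apart.

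**Figure D1:**
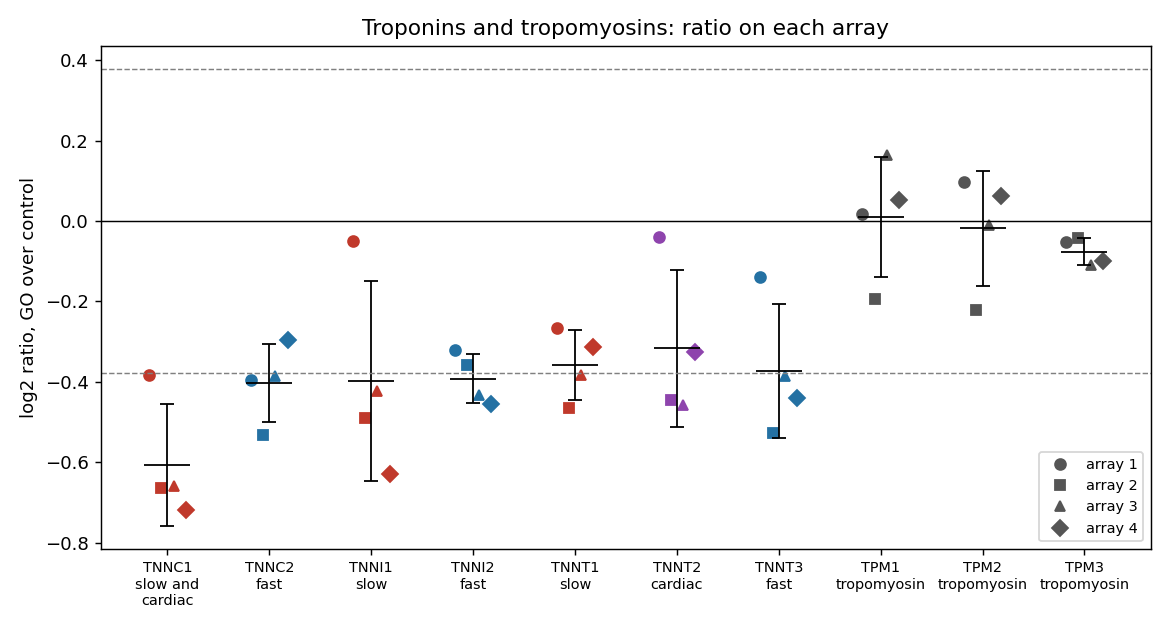
Log2 ratio (vertical axis, GO over control) of the brightest probe of each gene on arrays 1 to 4, with the mean and SD as bars; red marks slow, purple cardiac, blue fast genes, and dashed lines the 1.3-fold threshold. All 28 troponin points lie below 0, whereas 7 of the 12 tropomyosin points do.

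Troponin C is the calcium sensor of the complex. TNNC1, its slow and cardiac form, had log2 ratios of -0.38, -0.67, -0.66 and -0.72 on arrays 1 to 4, with a mean of -0.61 ± 0.15 (SD, n = 4; adjusted p = 0.0056). The control signal was 29746, 39301, 37457 and 30945, and the GO signal 22822, 24781, 23723 and 18791. Every GO signal was below every control signal, and the ratio was smallest in size on array 1. The probe spans 309 bases at chr16:35287316-35287624 (EquCab1), more than its own 60 bases, so its bases are not contiguous in the genome.

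TNNC2, the fast form, had log2 ratios of -0.40, -0.53, -0.39 and -0.30. Its mean was -0.40 ± 0.10 (SD, n = 4; adjusted p = 0.0104). Control signals ran from 9587 to 11262 and GO signals from 7431 to 7802, so the groups did not overlap. Without array 2 the adjusted p was 0.0565. The probe lies at chr22:34842361-34842734.

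Troponin I holds the filament off when calcium is low. The slow form, TNNI1, which developing muscle also uses, had log2 ratios of -0.05, -0.49, -0.42 and -0.63 (mean -0.40 ± 0.25 SD, n = 4; adjusted p = 0.0387). Array 1 stood apart from the other 3 with hardly any difference, a control signal of 5235 and a GO signal of 5057. Control signals of 5235 to 8666 and GO signals of 3662 to 6166 overlapped. The call of TNNI1 was lost without array 2, 3 or 4, with adjusted p between 0.0986 and 0.136, and also with no filter on dim probes (adjusted p = 0.153). The probe lies at chr30:18646529-18647672.

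TNNI2, the fast form, had the narrowest spread of the 7 troponins. Its log2 ratios were -0.32, -0.36, -0.43 and -0.45, with a mean of -0.39 ± 0.06 (SD, n = 4; adjusted p = 0.00858). Control signals of 978 to 1215 did not overlap with GO signals of 714 to 901. The mean lay just past the fold threshold, and it fell short of it without array 4, at -0.37, and with normexp and loess, at -0.35, a setting under which TNNT3 passed, at -0.42. The probe is placed on unassembled sequence, chrUn:277498650-277498815.

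Troponin T binds tropomyosin. Slow TNNT1 had log2 ratios of -0.27, -0.47, -0.38 and -0.31 and a mean of -0.36 ± 0.09 (SD, n = 4; adjusted p = 0.0136), which stayed under the fold threshold. Control signals were 7898 to 10141 and GO signals 6351 to 7339, without overlap. TNNT1 had an adjusted p of 0.0711 without array 2 and 0.0590 without array 3 (limma). Its 5 probes, of which this one lies at chr10:19130413-19130593, were shifted against each other by single bases and shared at least 56 of 60 bases. They ranged from -0.37 to -0.34 and are 1 measurement rather than 5.

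Cardiac TNNT2, which immature and regenerating skeletal muscle expresses, had log2 ratios of -0.04, -0.45, -0.46 and -0.33. The mean was -0.32 ± 0.19 (SD, n = 4; adjusted p = 0.0465). Without array 2, 3 or 4 its adjusted p was 0.105 to 0.166, and with no filter on dim probes 0.150 (limma). GO signals of 8431 to 10317 lay below control signals of 10576 to 13727, but on array 1 the pair nearly met. Its 5 probes, the brightest at chr30:18601044-18601342, overlapped in the same way and ranged from -0.32 to -0.30, and 2 of the 5 passed the adjusted p.

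Fast TNNT3 had log2 ratios of -0.14, -0.53, -0.39 and -0.44, with a mean of -0.37 ± 0.17 (SD, n = 4; adjusted p = 0.0236), just under the fold threshold. Control signals of 14111 to 20887 and GO signals of 10398 to 14488 overlapped slightly. The adjusted p was 0.0653 to 0.0997 without array 2, 3 or 4, and 0.0934 with no filter on dim probes (limma). The probe is placed at chrUn:277450440-277452351. A probe without a name in the files shared 47 of its 60 bases with it and was found by that sequence, after the values of TNNT3 had been seen. Its log2 ratios were -0.09, -0.49, -0.36 and -0.40 (mean -0.34 ± 0.17 SD, n = 4), in the same order over the arrays as those of TNNT3. Since the 2 probes share most of their bases and the same arrays, they are not separate measurements.

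**Figure D2:**
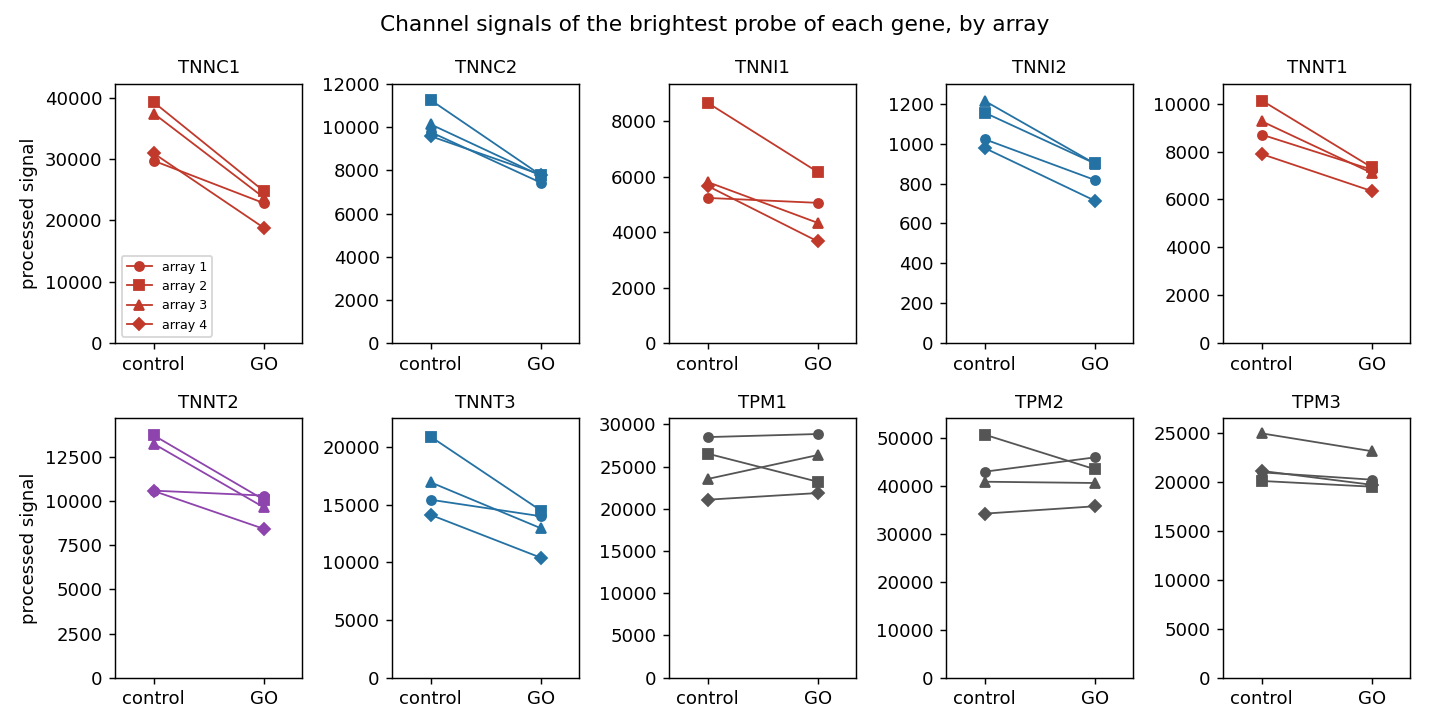
Processed signal (vertical axis, from 0) of the brightest probe in the control and GO channels, with a line for each array and its own scale for each gene. All 28 troponin lines go down from control to GO, by little on array 1 for TNNI1 and TNNT2, and the TPM1 and TPM2 lines go both ways.

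Across the 7 troponins, the log2 ratios were negative on all 4 arrays for every gene, beside 21.5% of all probes tested. In 5 of 7 genes the GO signals lay entirely below the control signals, beside 5.39% of all probes. The median over the troponins was -0.27 on array 1 and -0.49, -0.42 and -0.44 on arrays 2, 3 and 4, while the median of all probes tested was between 0.00 and 0.01 on each. Array 1 thus had the smallest shift. Without array 1 all 7 troponins passed both thresholds, and without array 2 or array 4 only 2 did. By a plain one-sample test, without the variance shared across probes, 0 of 7 passed after adjustment.

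The slow and fast forms of a subunit were compared through the difference of their log2 ratios within each array, since the levels of different probes have no common scale. Slow minus fast was 0.02 ± 0.11 for troponin T, from -0.13 to 0.13 over the arrays (SD, n = 4; exact sign-flip permutation test, two-sided, p = 0.625). For troponin I it was -0.01 ± 0.20, from -0.17 to 0.27 (exact permutation p = 1). Neither pair had a common direction over the arrays.

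For troponin C the difference was 0.01, -0.13, -0.27 and -0.42 on arrays 1 to 4, with TNNC1 further down on 3 of 4 arrays (mean -0.20 ± 0.19 SD, n = 4; exact permutation p = 0.25). Cardiac TNNT2 differed from TNNT1 by 0.04 ± 0.13 and from TNNT3 by 0.06 ± 0.09 (exact permutation p = 0.75 and 0.25). Adjusted over the 5 pairs, p was 0.625 to 1. With 4 arrays the smallest p of this test is 0.13, from 2 of 16 sign patterns, so differences between isoforms of the size seen for troponin C were not detectable here, and the pairs are not shown to respond alike.

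**Figure D3:**
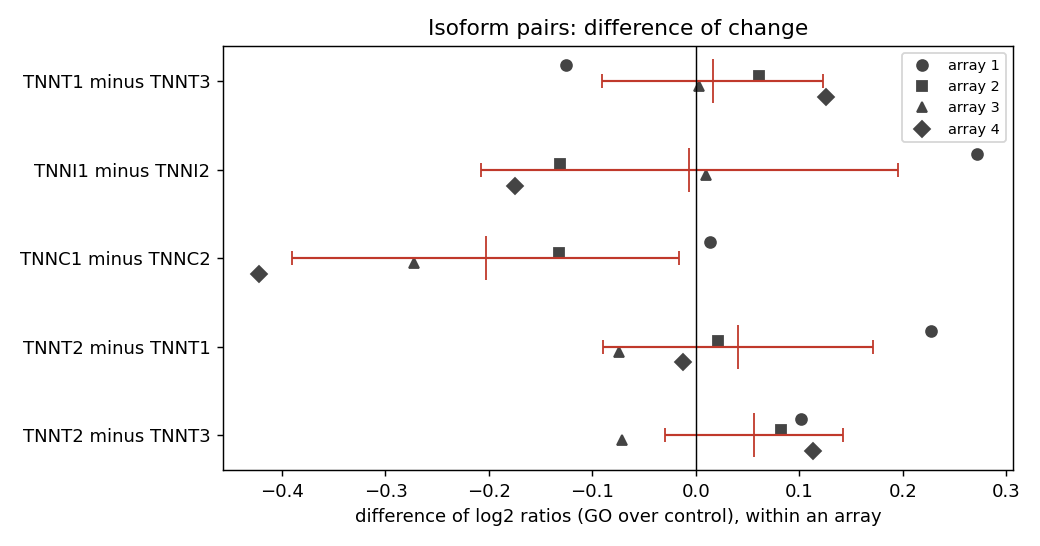
Difference of the log2 ratios of 2 troponin isoforms within an array (horizontal axis), with a symbol for each of the 4 arrays and the mean and SD in red. The points of each pair lie on both sides of 0, and those of TNNC1 minus TNNC2 reach furthest to the left, to -0.42.

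Tropomyosin is the rod-shaped partner on which troponin sits. TPM1 had log2 ratios of 0.02, -0.19, 0.16 and 0.05 (mean 0.01 ± 0.15 SD, n = 4; adjusted p = 0.936), from a probe at chr1:126283872-126283931. TPM2, the beta form, had log2 ratios of 0.10, -0.22, -0.01 and 0.06 (mean -0.02 ± 0.14 SD, n = 4; adjusted p = 0.885), from a probe at chr25:34644234-34644783. Both genes were lower on array 2 and near 0 or higher on the others.

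Control and GO signals overlapped for both, with control signals of 21081 to 28495 and GO signals of 21868 to 28860 for TPM1. The 3 probes of TPM1 lay between 0.01 and 0.03 and the 3 of TPM2 between -0.05 and -0.02. Which splice forms of these genes the probes detect was not determined.

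The tropomyosin values depended on the normalization, and TPM2 and TPM3 changed sign with it. With arrays centered on their median and no lowess curve, TPM1 had a log2 ratio of 0.37 (limma adjusted p = 0.0258, just under the fold threshold). TPM2 had 0.52 (limma adjusted p = 0.00762, past both thresholds) and TPM3 0.24 (limma adjusted p = 0.0550). The troponins remained below 0 under each normalization, but without lowess they ranged only from -0.36 to -0.15 and none passed both thresholds. The tropomyosin probes were brighter than 96.0 to 97.6% of the probes tested and the troponin probes than 63.7 to 96.7%, and the part of brightness in these shifts was not tested. The 7 troponins lay below the 3 tropomyosins under all 3 normalizations.

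**Figure D4:**
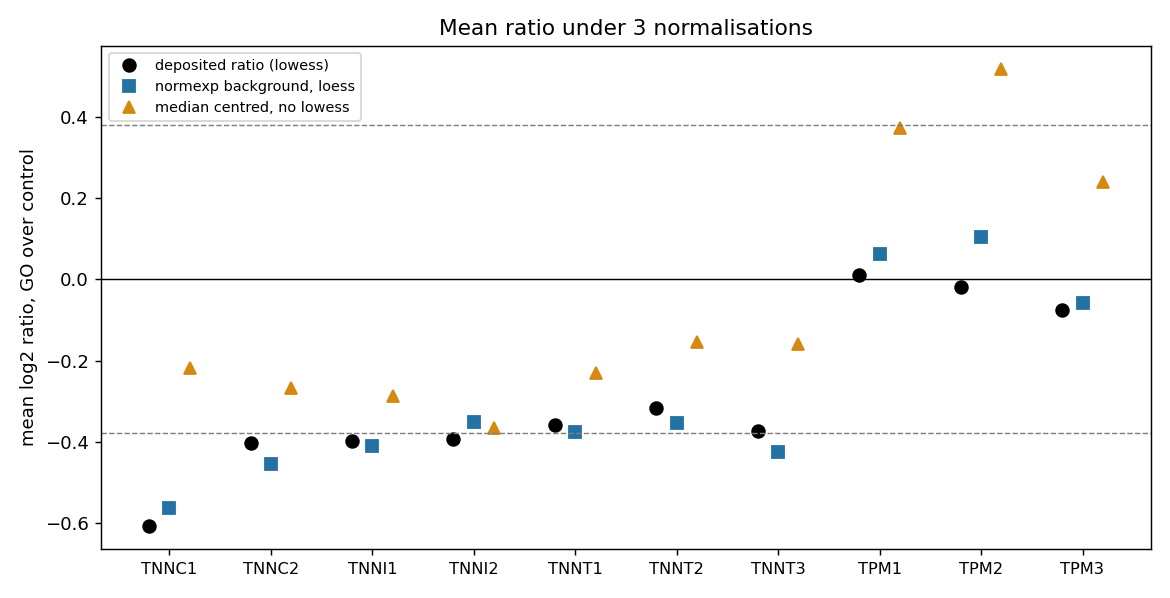
Mean log2 ratio over 4 arrays (vertical axis) of the brightest probe of each gene with the deposited ratios, with normexp background correction and loess, and with median centering without lowess; dashed lines mark the 1.3-fold threshold. All troponin symbols lie below 0, and the tropomyosins lie at 0.24 to 0.52 when no lowess is used.

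TPM3, whose muscle form belongs to slow fibers, had 8 probes, placed along 11 kb of unassembled sequence. Its brightest probe, at chrUn:82948915-82948974, had log2 ratios of -0.05, -0.04, -0.11 and -0.10 (mean -0.08 ± 0.03 SD, n = 4; adjusted p = 0.358). The 4 probes furthest upstream, 9754 to 11057 bases before the last probe, had means of -0.13 to 0.00 and adjusted p of 0.198 to 0.979. The last probe was at 0.15 ± 0.03 (SD, n = 4; adjusted p = 0.106), above 0 on every array.

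A pair of probes between these, 2266 and 2326 bases before the last one, were lower past both thresholds. They are named in the files for predicted transcript variants 8 and 7. The variant 8 probe, at chrUn:82951122-82951181, had log2 ratios of -0.85, -0.59, -0.40 and -0.43 (mean -0.57 ± 0.21 SD, n = 4; adjusted p = 0.0101). The variant 7 probe, at chrUn:82951182-82951241, had log2 ratios of -1.01, -0.43, -0.62 and -0.43 (mean -0.62 ± 0.27 SD, n = 4; adjusted p = 0.0138).

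Array 1 had the largest shift in both, unlike in the troponins. Signals of the variant 8 probe were 110 to 152 in the control channel and 72.8 to 97.6 in the GO channel, without overlap. These are dim, brighter than only 25.5% of the probes tested, and the variant 7 probe was dimmer, brighter than 16.6%. With normexp background and loess together the means were -0.29 and -0.27, under the fold threshold. The adjusted p also rose just above 0.05 when 1 array was left out, at 0.0504 for variant 8 without array 2 and 0.0506 for variant 7 without array 3. With no filter on dim probes it was 0.0707 for variant 8 and 0.0912 for variant 7 (limma). By the plain one-sample test it was 0.0997 and 0.120. Without pairing, variant 8 missed the threshold, at 0.0583, and variant 7 passed, at 0.0311 (limma).

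The 3′-most probe and the variant 8 probe both held AATAAA, the canonical polyadenylation signal, starting at base 42 of 60. The 30 bases around it are shown, with that motif in capitals, because the probes lie 2266 bases apart and only the variant 8 probe was lower past both thresholds. The last probe, above 0, and the brightest probe 59 bases from it, below 0 on every array, both missed the test.

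TPM3 variant 8 probe: atgctttctaacAATAAAaggactgacctg
TPM3 last probe: gtgtctttttgaAATAAAgaaccagtccct

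AATAAA occurred in 8.64% of the 43603 probes, and its reverse complement TTTATT in 3.66%. None of the other 27 troponin and tropomyosin probes held either. Within arrays, the variant 8 probe differed from the brightest TPM3 probe by -0.80, -0.55, -0.29 and -0.33 (mean -0.49 ± 0.23 SD, n = 4; exact sign-flip permutation test, two-sided, p = 0.13, the smallest it can give). This contrast was chosen after the values had been seen.

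**Figure D5:**
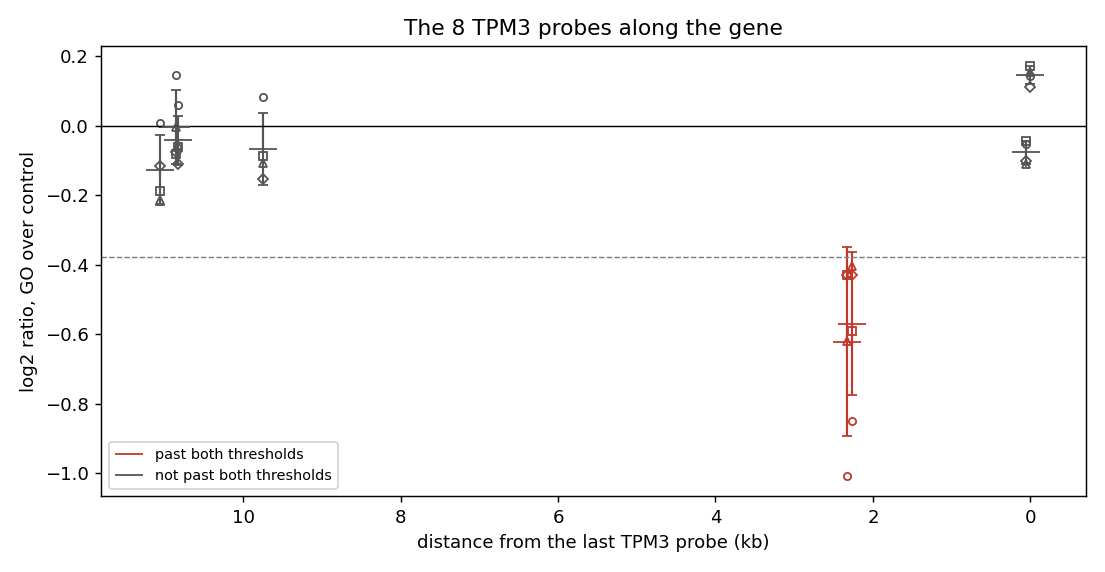
Log2 ratio (vertical axis, GO over control) of the 8 TPM3 probes against their distance in kb from the last probe, with open symbols for arrays 1 to 4 and bars for the mean and SD; the dashed line marks the 1.3-fold threshold. The 2 red probes near 2.3 kb lie at -0.40 or lower on every array, and the other 6 means lie between -0.13 and 0.15.

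Troponin I and troponin T genes lie beside each other in vertebrate genomes. By the positions in the files, TNNT2 and TNNI1 were 45.9 kb apart on chromosome 30, with log2 ratios of -0.32 and -0.40. TNNT3 and TNNI2 were 47.3 kb apart on unassembled sequence, with log2 ratios of -0.37 and -0.39. TNNT1 lay 14.1 kb from TNNI3, the cardiac troponin I, on chromosome 10. TNNI3 had a mean of -0.22 ± 0.13 (SD, n = 4; adjusted p = 0.0716) and was below 0 on every array without passing the test. In the RefSeq order of the TB-T2T assembly, used only for neighbors, 0, 1 and 2 protein-coding genes lay within the TNNT1, TNNT2 and TNNT3 pairs.

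Some other genes of the thin filament were lower as well. Of 20 such genes 19 were tested, and 5 were lower past both thresholds and 0 higher (limma), beside 5.61% and 3.33% of all probes. At an unadjusted p of at most 0.05 (limma), 12 were lower and 0 higher, beside 17.9% and 17.8% of all probes. The median log2 ratio was -0.29, beside 0.00 over all probes tested. The genes lower were NEB, the nebulin ruler of filament length, at -0.64, ACTA1, skeletal actin, at -0.64, KLHL41, which stabilizes nebulin, at -0.55, and the leiomodin LMOD2 at -0.51. The other was LMOD3, a second leiomodin, at -0.48, named after its values were seen. Their adjusted p lay between 0.00436 and 0.0153. Without lowess 2 genes of the list, ACTC1 and TPM4, were instead higher past both thresholds, at 0.69 and 0.42, and ACTA1 was at -0.08.

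Of 19 genes that fast, slow or developing fibers express beside their troponins, 17 were tested. Past both thresholds 11 were lower and 0 higher (limma), beside 5.61% and 3.33% of all probes. At an unadjusted p of at most 0.05 (limma), 14 were lower and 0 higher, beside 17.9% and 17.8%. The median was -0.53. By class, 4 of 6 slow genes, 4 of 8 fast genes and 3 of 3 developmental genes were lower. Among them were myosin heavy chains: embryonic and perinatal MYH3 and MYH8 at -0.83 and -1.08, and MYH7 of slow fibers at -0.73, with adjusted p between 0.00338 and 0.00823. MYH2 of fast fibers entered through the control channel, since its GO signal was above background on only 3 arrays. It had a log2 ratio of -1.11, but -0.39 with normexp and loess, and 10 genes were lower when both channels had to be above background. Without lowess 1 gene of the list, MYLPF, was higher, at 0.41, and MYH3 was at -0.15.

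Markers of other cell types were examined beside the troponins. Of 8 muscle markers 7 were tested and 5 were lower past both thresholds (limma), beside 5.61% of all probes lower and 3.33% higher. These were MYF5 at -0.93, NCAM1 at -0.63, DES (desmin) at -0.61 and, named after their values were seen, CDH15 at -0.49 and MYOG at -0.40. MYF5 kept its call in every alternative. The call of DES was lost without array 2, with no filter and without pairing (limma adjusted p = 0.0545, 0.0790 and 0.115), and without lowess, at -0.33. NCAM1 lost its call with no filter and without pairing (limma adjusted p = 0.0699 and 0.0627). By the plain one-sample test both missed, with adjusted p of 0.109 for DES and 0.0991 for NCAM1. MYOG was under the fold threshold with normexp and loess, at -0.35. PAX7, a defining marker of resting satellite cells, was not well above background on any array. The summed muscle marker signal was 32416 to 49346 in control and 21990 to 32830 in GO channels, and these ranges overlapped slightly. Different probes have no common scale, so sums of different lists cannot be compared and give no cell proportions.

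All 7 fibroblast markers were detected and 1 passed both thresholds, PDGFRA, higher at 0.87 ± 0.48 (SD, n = 4; limma adjusted p = 0.0198). Of all probes tested, 3.33% were higher and 5.61% lower past both thresholds. With normexp and loess PDGFRA was at 0.37, under the fold threshold, and its call was lost without array 2 (adjusted p = 0.0741), with no filter, without pairing and by the plain test (0.126 to 0.152). The fibroblast markers had a summed signal of 312029 to 476621 in control and 312675 to 441403 in GO channels. Of 6 smooth muscle markers 1 passed both thresholds, CNN1, a calponin, higher at 0.50 (limma adjusted p = 0.0148). The sums of the smooth muscle markers were 29829 to 44796 and 32041 to 41692. Of 5 leukocyte markers 3 were tested and none passed both thresholds, with sums of 14008 to 17140 and 15579 to 21891, and CD3E and ITGAM were not well above background on any array. None of the 3 endothelial and 3 adipocyte markers was well above background on any array. The part of cell composition in the troponin values was not tested.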

How the data were processed

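RNA of GO-treated and control cells was compared on 4 two-color arrays. The authors scanned the arrays with Feature Extraction (version 10.10.1.1 per the file headers). The deposited log10 ratios are those of processed Cy5 over processed Cy3 signal once the background was subtracted, trends across the array removed and the dyes normalized (linear and lowess). The deposited intensity columns are processed, background-subtracted, mean and background signals of each channel, and the deposited flags mark, for each spot, a signal well above background, saturation or an outlier (these have no unit). The authors' table of ratios for the series was not used here.

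The 1417 control spots and spots marked as outliers were left out, spots of 1 probe were averaged, and ratios were multiplied by log2 of 10 (3.32). On the 4 arrays, 63.5 to 68.9% of spots exceeded background in the control and 57.4 to 67.0% in the GO channel by the files' flag, and 0 were saturated. A probe with this flag on every array for GO, or on every array for control, was tested with limma (version 3.58.1, lmFit on an intercept and eBayes, R 4.3.3), two-sided, with Benjamini-Hochberg adjustment over 26834 probes. Calls needed a fold change of at least 1.3 with an adjusted p of at most 0.05. A gene is its brightest probe by mean log2 signal. The fit was tested on simulated data.

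All 10 genes of the family are named, and from each partner and marker list at most 4 genes past both thresholds with 1 sign on all arrays and the largest log2 ratios, plus any gene called against the rest of its list. The genes and lists were chosen with earlier results of these data known. Alternatives were normexp (offset 50) with loess, median centering without lowess, no filter on dim probes, a filter on both channels, each array left out, the median of a gene's probes, a plain one-sample test, channels without pairing, and array weights. The ratio pairs the channels of an array by hybridization. The deviations of the channels of 1 array from their group means had correlations of 0.60, 0.86, 0.73 and 0.48 over the probes tested, and those of different arrays -0.54 to 0.24. Probe sequences and positions (EquCab1) are those of the files. Promoter motifs and protein sequences were not analysed here.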

Additional observations from a re-analysis of the deposited data

Results flagged for a closer look

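One difference had a sample far from the others by Dixon's ratio, the gap to the nearest value divided by the range. For TNNT2 minus TNNT3 array 3, at -0.07, lay apart from the other 3 arrays at 0.08 to 0.11, with a ratio of 0.833, just above the critical value for 4 samples. Of 30 sets of 4 values examined, 1 passed, and chance alone flags about 1 in 20.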

How the results depend on the processing

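Of the 10 family members 4 were called lower with the deposited ratios, and 0 after median centering without lowess. With that centering, 5 were lower and 3 higher at an unadjusted p of at most 0.05 (limma), and TPM2 was the 1 gene called higher (0.52). By the plain one-sample test 0 were called lower, with 8 members lower at an unadjusted p of at most 0.05, TPM3 among them. By the adjusted p alone, an alternative added after seeing the data, 7 were lower. Leaving out single arrays gave 2 to 7. Without the pairing by array (no replicate block), 1 member, 3 thin filament and 6 fiber-type genes were called lower, and 919 of all probes against 2399. Thin filament genes called lower numbered 5, and 2 with no filter and 1 by the plain test, and 2 were called higher without lowess. Fiber-type genes called lower numbered 11, and 6 without lowess, 6 with no filter and 0 by the plain test (14 unadjusted), with 1 higher without lowess. TNNC1 minus TNNC2 moved from -0.20 to 0.050 without lowess, and the TPM3 variant 8 difference from -0.49 to -0.23 with normexp and -0.82 without lowess. Over all probes, calls numbered 1297 with normexp, 908 with no filter, 147 by the plain test and 1566 and 1603 without arrays 2 and 3. Median centering gave 3389, of which 48.7% were lower, against 62.7%. The 7 troponins kept their direction in every alternative. Among the recomputed values of single named genes, 218 stayed on their side of the thresholds, 60 lost the call, 6 gained it and 1, TPM2 without lowess, was called in the opposite direction. Genes short of the fold threshold, such as TNNT1, TNNT2 and TNNT3, count as staying even where their adjusted p rose above 0.05. With normexp and loess the 4 called members were not those of the deposited ratios, since TNNI2 was lost and TNNT3 gained. The causes were not tested, other than fewer samples and more probes adjusted for by construction.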
